A study of Mus musculus with 21 samples.

Results

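The genes described here encode isoforms of the glycolytic enzymes: the hexokinases Hk1, Hk2 and Hk3, the glucose-6-phosphate isomerase Gpi1, the phosphofructokinases Pfkm and Pfkp, the aldolase Aldoa, the pyruvate kinases Pkm and Pklr, and the lactate dehydrogenase Ldha. They were taken as a named list, and each was followed by the brightest probe whose RefSeq accession carries its symbol. All 10 genes had such a probe, among 18217 genes named on the array and 14315 with a tested probe, and all 10 passed the filter on dim probes. No member had a missing value on any of the 21 arrays.

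Cells of C57BL/6 bone marrow were sorted into 7 fractions, each measured on 3 arrays. No group carried a mutation or a treatment, and the labels give neither the age of the mice nor whether the replicates of a fraction came from separate animals or pools, so p-values measure the spread between these samples, which may be partly technical. KLS cells (lineage-negative, Kit+ and Sca1+) are multipotent progenitors. On the erythroid side, PreMegE (CD150+, CD105-, Fc gamma receptor-negative), CFUe and Ter119 (CD71+ and Ter119+) follow in order of maturity. On the myeloid side the order is PreGM, GMP (CD150-, Fc gamma receptor-positive) and Mac1Gr1 (Mac1+ and Gr1+). The labels list the same gate for CFUe and PreGM (CD150-, CD105-, Fc gamma receptor-negative) and Sca1+ for all 4 intermediate fractions, so these fractions are known here by name rather than by gate. Ly6a, which encodes Sca1, was at 2.57 ± 0.17 (SD, n = 3) in KLS, at -3.14 ± 0.22 in PreMegE and at -5.81 ± 1.21 in CFUe, where 1 of 3 arrays was well above background. It was at -0.31 ± 0.10 in PreGM and 2.10 ± 0.03 in GMP. Both mature fractions were above KLS, at 3.75 ± 0.08 in Ter119 and 5.38 ± 0.17 in Mac1Gr1. In bulk samples, fewer cells of a type and less RNA per cell cannot be told apart.

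Glycolysis splits glucose into pyruvate through a chain of cytosolic enzymes, and its irreversible steps are catalysed by hexokinase, phosphofructokinase and pyruvate kinase. Each of these steps is served by several genes whose enzymes differ in affinity, in inhibition and in the tissues that use them. Hexokinase 1 is the housekeeping and red-cell form, hexokinase 2 the insulin- and hypoxia-responsive form of muscle and growing cells, and hexokinase 3 the form of leukocytes. Pyruvate kinase of mature red cells and liver comes from Pklr, which has separate erythroid and hepatic promoters, whereas most other cells use the M forms made by alternative splicing of Pkm. Mature mammalian red cells have no mitochondria and make their ATP by glycolysis alone, and neutrophils also rely on it heavily.

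The sequences before the starts of Pklr, Pkm, Hk3 and Pfkm are shown because these genes changed most across the fractions. Each stretch holds the 250 bases before an annotated transcription start, read 5′ to 3′ on the gene's strand from the RefSeq promoter table of GRCm38.p6, and capitals mark motif matches on either strand. The GATA motif searched was AGATAA. The ETS motif was GGAAGT. The E-box was CACGTG. The KLF motif was CCNCNCCC, whose matches can overlap each other.
Pklr, upstream start, chr3:89135892-89136141, plus strand: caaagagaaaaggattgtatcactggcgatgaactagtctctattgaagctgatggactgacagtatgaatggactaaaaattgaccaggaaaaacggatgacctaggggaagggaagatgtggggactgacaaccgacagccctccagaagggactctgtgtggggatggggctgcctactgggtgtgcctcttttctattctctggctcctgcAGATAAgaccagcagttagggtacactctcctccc
Pklr, downstream start, chr3:89136373-89136622, plus strand: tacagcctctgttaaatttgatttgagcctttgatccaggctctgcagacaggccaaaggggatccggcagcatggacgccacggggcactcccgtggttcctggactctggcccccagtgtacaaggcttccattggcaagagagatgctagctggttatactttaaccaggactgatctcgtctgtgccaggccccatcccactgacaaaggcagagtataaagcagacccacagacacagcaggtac
Pkm, upstream start, chr9:59656326-59656575, plus strand: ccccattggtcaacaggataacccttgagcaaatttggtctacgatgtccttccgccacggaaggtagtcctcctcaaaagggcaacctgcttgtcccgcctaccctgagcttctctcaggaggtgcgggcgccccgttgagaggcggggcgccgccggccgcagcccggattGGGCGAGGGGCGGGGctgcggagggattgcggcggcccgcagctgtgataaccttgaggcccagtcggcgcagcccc
Hk3, only start, chr13:55021386-55021635, minus strand: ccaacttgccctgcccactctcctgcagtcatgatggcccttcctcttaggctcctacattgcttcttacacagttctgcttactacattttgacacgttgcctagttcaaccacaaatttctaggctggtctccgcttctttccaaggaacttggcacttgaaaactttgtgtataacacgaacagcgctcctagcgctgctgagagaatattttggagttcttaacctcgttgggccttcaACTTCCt
Pfkm, second of 4 starts, chr15:98108221-98108470, plus strand: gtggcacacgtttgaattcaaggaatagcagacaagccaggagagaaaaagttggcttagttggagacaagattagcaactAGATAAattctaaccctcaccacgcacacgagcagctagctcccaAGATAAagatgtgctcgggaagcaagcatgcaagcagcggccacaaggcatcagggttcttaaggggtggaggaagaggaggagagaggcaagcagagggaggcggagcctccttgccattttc
The upstream Pklr start, 481 bases before the downstream one, had AGATAA from 35 bases before the start, and the downstream start had none of the 4 motifs. Hk3 had GGAAGT on the reverse strand, from 7 bases before its start. The upstream Pkm start held CCNCNCCC at 2 overlapping positions, and the downstream Pkm start, not printed, at 11. Of the 4 Pfkm starts, the first 3 held AGATAA, the second of them at 2 positions, and the third start's match lies within the same DNA as 1 of these since the stretches overlap. Over all 32851 promoters of this length, AGATAA was present in 9.99%, GGAAGT in 19.7%, CACGTG in 6.02% and CCNCNCCC in 45.9%. These matches are letters in a window and say nothing of binding.

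Each array carried 1 colour, and 56.2% to 77.4% of its probes were well above background. For each of the 21 arrays, the array most like it came from its own fraction. Levels are log2 signals with the array's own 75th percentile subtracted, so that a level of 0 equals that percentile, and levels of different probes are not set against each other. Marker lists were read beside the enzymes. Erythroid markers had an array median between 4.36 and 4.87 in Ter119 and between 2.16 and 2.55 in CFUe, against -5.15 to -1.63 in KLS and the myeloid fractions. The Ter119 arrays also carried granulocytic transcripts, with all 11 measured markers well above background, an array median of 8.25 to 8.41 and a linear sum of 4690 to 5909 (the 75th percentile is 1), beside a median of 9.07 to 9.26 and a sum of 5258 to 5884 in Mac1Gr1. All 7 B-cell markers were well above background in Ter119 too, with a median of 2.82 to 3.37. In Mac1Gr1 6 of the 7 were well above background on all 3 arrays, with a median of 0.80 to 1.59, beside -4.28 to -3.70 in GMP. KLS carried macrophage transcripts (10 of 10 markers, median 1.42 to 3.09). CFUe replicate 3 stood apart in granulocytic transcripts, with a median of -0.84 against -3.67 and -3.24 in replicates 1 and 2. PreGM replicate 3 did so as well, with a median of -0.02 against -2.54 and -2.76 in PreGM replicates 1 and 2. Kit, Ly6g, Hbb-b1, Cebpe and Igll1 had no named probe.

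The pyruvate kinase genes showed the largest exchange between isoforms. Pkm was at 3.78, 3.68 and 3.78 in KLS, at 2.38, 2.27 and 2.49 in PreMegE, and at -4.47, -4.27 and -1.39 in CFUe. It was back at 3.30, 3.51 and 3.85 in Ter119. All 3 CFUe arrays lay below every other array, and replicate 3 lay well above the other CFUe arrays. Replicate 3 is also the CFUe array with the high granulocytic median, and the probe was well above background on 2 of the 3 CFUe arrays. On the myeloid side Pkm was at 3.95, 4.07 and 3.85 in PreGM and at 4.59, 4.72 and 4.67 in GMP. PreGM replicate 3, whose granulocytic median was also high for its fraction, was the lowest PreGM array in Pkm. It was the highest PreGM array in Hk3 (3.81) and in Hk2 (1.56). In Pkm the Mac1Gr1 arrays were the highest of all, at 5.84, 5.84 and 5.70.

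Pkm, whose M-type enzymes carry out the last ATP-yielding step, fell by 5.76 on the log2 scale from PreMegE to CFUe, a 54.0-fold difference (SE 0.51, adjusted p = 7.90e-08). It rose by 6.93 from CFUe to Ter119 (SE 0.51, adjusted p = 1.35e-09). In CFUe it was 262-fold lower than in GMP, a log2 difference of -8.04 (SE 0.51, adjusted p = 6.32e-10). Without CFUe replicate 3 these differences were -6.75, 7.93 and -9.03, so the linear folds depend on that array, and every one of them remained called. The difference of -1.37 from KLS to PreMegE missed the threshold (adjusted p = 0.0566) although the arrays of the fractions did not overlap. It passed with quantile scaling (-1.65, adjusted p = 0.0135), in the series table (-1.61), with normexp (-1.39), with scaling to the spike-in probes (-1.83) and when these fractions were fitted alone (-1.37, adjusted p = 0.000399). PreMegE was lower than PreGM by a called -1.58 (adjusted p = 0.0276). That last call was lost when any of 5 arrays was left out, PreMegE replicates 1, 2 and 3 and PreGM replicates 1 and 2 (adjusted p = 0.0574 to 0.0787). The difference itself stayed between -1.63 and -1.52, and the arrays of PreMegE and PreGM did not overlap. The fit pools the spread of all fractions. The SD of Pkm was 1.73 in CFUe, against 0.11 in PreMegE and 0.11 in PreGM. The order of the means was Mac1Gr1, GMP, PreGM, KLS, Ter119, PreMegE and CFUe, and only KLS and Ter119 overlapped among neighbours.

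Pklr, the red-cell and liver pyruvate kinase, moved the other way. It was at -4.66, -4.12 and -4.29 in KLS, at -3.29, -2.92 and -2.76 in PreMegE, and at 0.98, 0.85 and 0.64 in CFUe. In Ter119 it was at -2.25, -2.38 and -2.97. The CFUe arrays were above all 18 others. It was low in PreGM (-4.41, -4.37 and -5.08) and in GMP (-4.78, -5.57 and -4.31), where 2 of 3 arrays each were well above background, and at -3.75, -3.62 and -3.22 in Mac1Gr1.

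Pklr rose 2.58-fold from KLS to PreMegE (log2 difference 1.37, SE 0.29, adjusted p = 0.00185) and 14.1-fold from PreMegE to CFUe (3.82, SE 0.29, adjusted p = 1.45e-08). It then fell by 3.36 from CFUe to Ter119 (SE 0.29, adjusted p = 1.20e-08). The part of the granulocytic and B-cell transcripts of Ter119 in this fall was not tested. The difference between CFUe and GMP was 5.71, or 52.5-fold (SE 0.29, adjusted p = 3.88e-11). Fitting the slide as a block removed the KLS to PreMegE call (0.97, adjusted p = 0.0669), which was also lost with normexp background correction (0.76) and with scaling to the spike-in probes (0.90). From GMP to Mac1Gr1 Pklr was 1.36 higher (adjusted p = 0.000432), but its direction turned with scaling to the spike-in probes (-0.67), as described for the other members at that step.

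**Figure D1:**
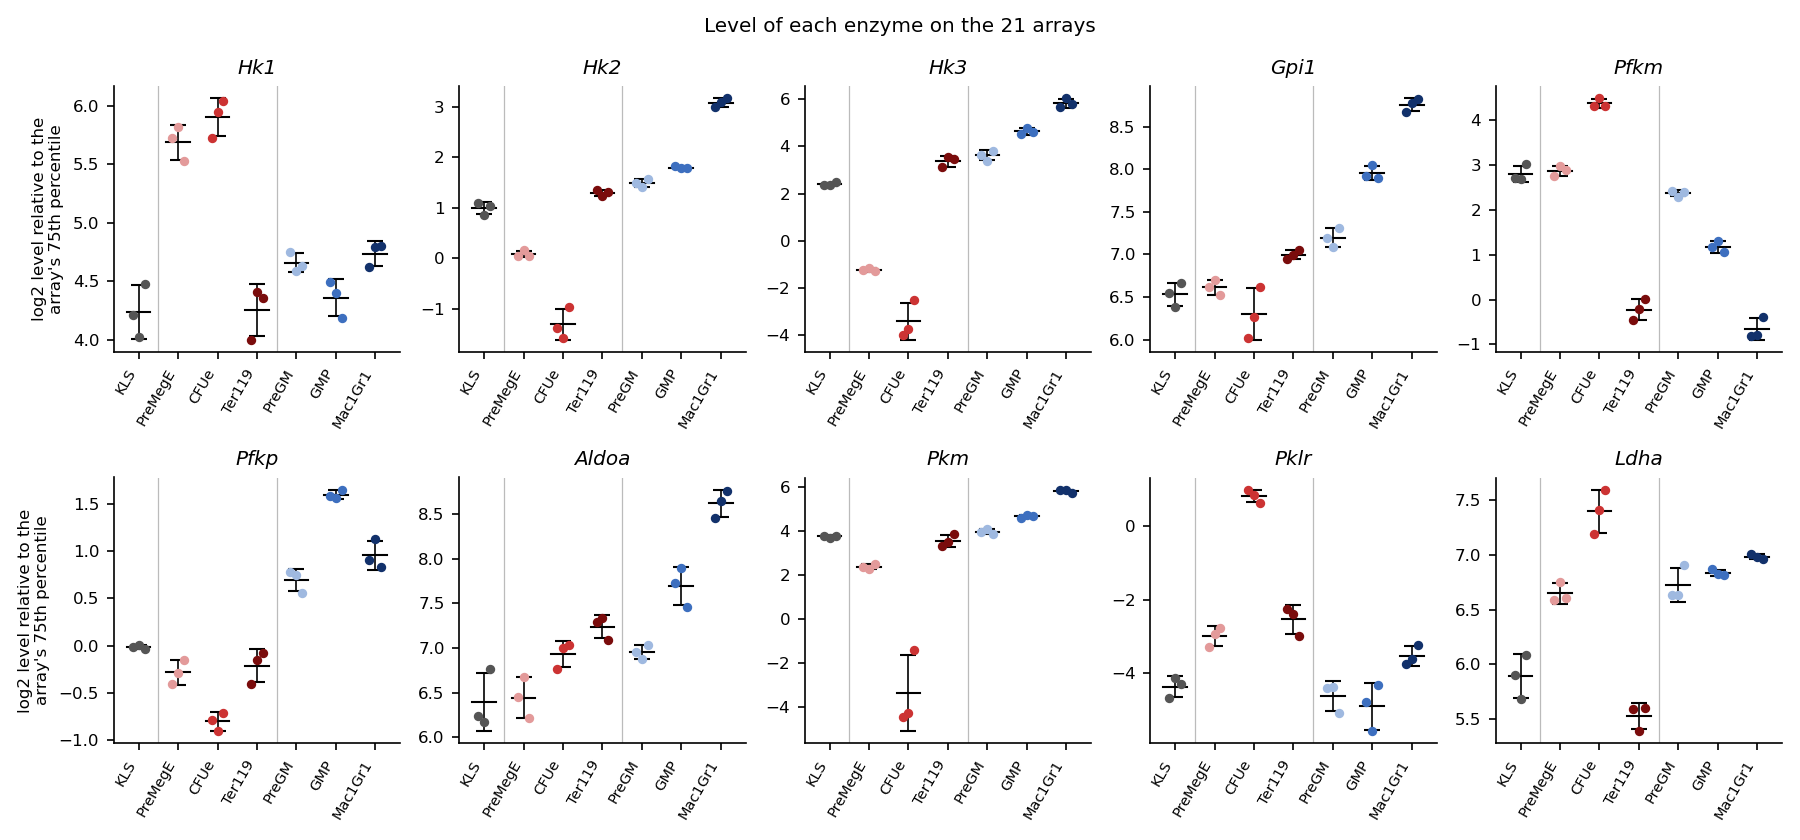
Level of each enzyme on all 21 arrays, as log2 signal relative to the array's 75th percentile on the vertical axes, which differ between panels. Points are arrays, horizontal bars are fraction means and whiskers are the SD (n = 3); red shades are erythroid and blue shades myeloid fractions. In CFUe, Hk2, Hk3 and Pkm were at their lowest, and Pfkm and Pklr at their highest.

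The within-array difference of isoform probes does not move when a constant is subtracted from an array, although quantile scaling can move it. Relative to its KLS mean, the Pklr minus Pkm difference was 2.43, 2.92 and 2.86 in PreMegE, 13.6, 13.2 and 10.1 in CFUe, and 2.55, 2.21 and 1.29 in Ter119. In the myeloid fractions it was -0.47 ± 0.31 (SD, n = 3) in PreGM, -1.44 ± 0.68 in GMP and -1.21 ± 0.35 in Mac1Gr1. Every erythroid array was thus above every myeloid array. Averaged over the 3 stages, the erythroid fractions exceeded the myeloid ones by 6.73 on the log2 scale (exact two-sided permutation test within stages, p = 0.00025, the smallest that the 8000 permutations can give; adjusted p = 0.000643 over 18 tests). From the progenitor to the mature fraction, averaged over the lineages, the difference was -5.03 (exact permutation test, p = 0.0650, adjusted p = 0.0780). The CFUe and Ter119 arrays were far apart, and the GMP and Mac1Gr1 arrays overlapped.

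**Figure D2:**
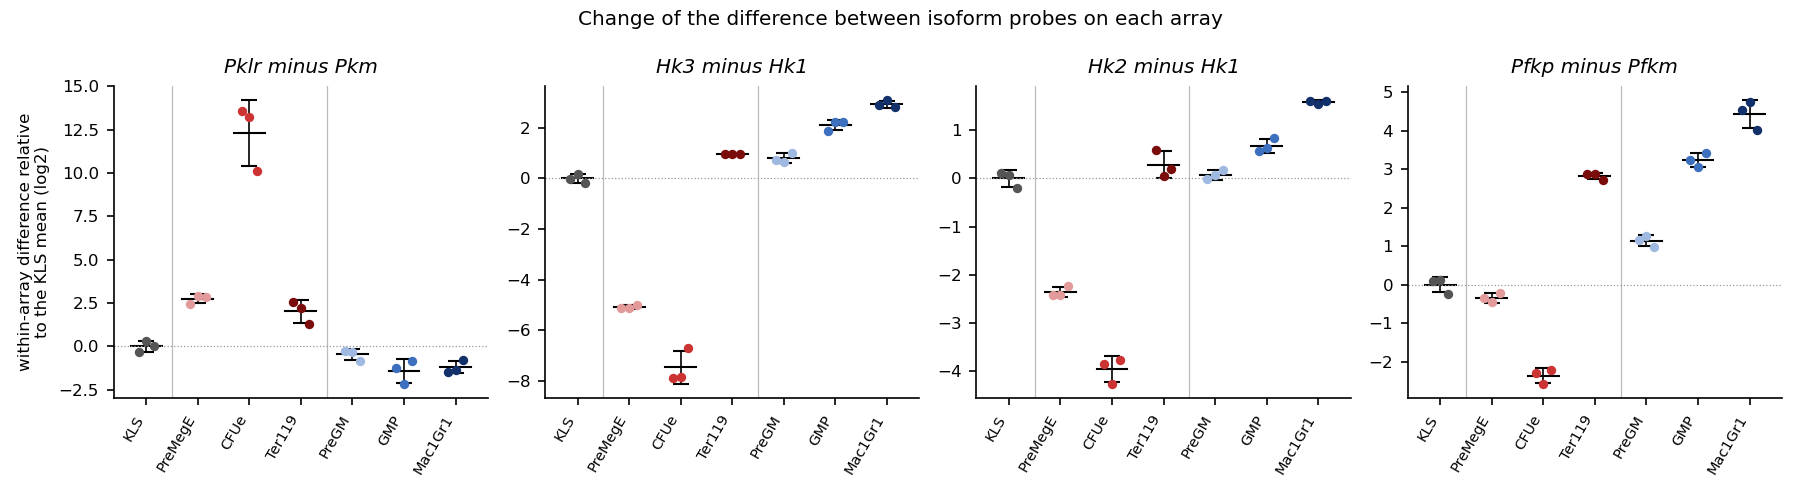
Within-array log2 difference of isoform probes, each relative to its mean in KLS, on all 21 arrays. Points are arrays, bars are fraction means and whiskers the SD (n = 3). Pklr minus Pkm was 10.1 to 13.6 above KLS in CFUe, whereas the other pairs, Hk3 minus Hk1, Hk2 minus Hk1 and Pfkp minus Pfkm, were lowest there.

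Among the hexokinases, which trap glucose in the cell by phosphorylation, Hk1 was higher and Hk2 and Hk3 lower in the erythroid progenitors. Hk3, the leukocyte form, was at 2.36, 2.37 and 2.47 in KLS, at -1.24, -1.14 and -1.29 in PreMegE, and at -3.98, -3.72 and -2.51 in CFUe. In Ter119 it was at 3.11, 3.54 and 3.47. PreMegE and CFUe lay below all other fractions, and the highest CFUe value was again that of replicate 3. In the myeloid fractions Hk3 was at 3.64, 3.39 and 3.81 in PreGM, at 4.52, 4.78 and 4.59 in GMP, and, in Mac1Gr1, at 5.66, 6.04 and 5.78, without overlap between these 3 fractions.

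Hk3 fell by 3.62 from KLS to PreMegE, 12.3-fold (SE 0.26, adjusted p = 1.73e-08), and by a further 2.18 from PreMegE to CFUe (SE 0.26, adjusted p = 2.76e-06). It rose by 6.78 from CFUe to Ter119, 110-fold (SE 0.26, adjusted p = 4.32e-13). On the myeloid side it was higher at each step, by 1.22 from KLS to PreGM (adjusted p = 0.00285), by 1.01 from PreGM to GMP (adjusted p = 0.00855) and by 1.20 from GMP to Mac1Gr1 (adjusted p = 0.000547). These 3 differences lie near the 2-fold limit. The PreGM to GMP call was lost without PreGM replicate 2 (0.90) and without GMP replicate 2 (0.94), with quantile scaling (0.90), in the series table (0.88) and with the slide as a block (0.99). The GMP to Mac1Gr1 call was lost with quantile scaling (0.94), in the series table (0.90) and with a slide block (0.91), and it turned to -0.83 with scaling to the spike-in probes. The erythroid and myeloid values lay far apart, with PreMegE 28.6-fold below PreGM (log2 difference -4.84, adjusted p = 7.66e-10) and CFUe 262-fold below GMP (-8.03, adjusted p = 1.85e-13).

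Hk2 varied in the same order as Hk3 over a smaller range. It was at 1.09, 0.85 and 1.03 in KLS, at 0.05, 0.15 and 0.04 in PreMegE, and at -1.39, -1.58 and -0.98 in CFUe, and it was at 1.34, 1.22 and 1.31 in Ter119. The myeloid values were 1.48, 1.41 and 1.56 in PreGM, 1.82, 1.78 and 1.77 in GMP, and 2.98, 3.09 and 3.16 in Mac1Gr1. No neighbouring fractions in the order of means overlapped. Hk2 fell by 1.39 from PreMegE to CFUe (SE 0.12, adjusted p = 9.59e-08) and rose by 2.60 from CFUe to Ter119 (SE 0.12, adjusted p = 5.53e-12). Mac1Gr1 was higher than GMP by 1.29 (adjusted p = 5.24e-08), which turned to -0.74 with scaling to the spike-in probes. CFUe was 8.59-fold below GMP (log2 difference -3.10, adjusted p = 2.14e-12).

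Hk1, the form of red cells and of most tissues, was at 4.22, 4.02 and 4.48 in KLS, at 5.73, 5.82 and 5.53 in PreMegE, and at 5.72, 5.95 and 6.04 in CFUe. It was at 4.002, 4.41 and 4.36 in Ter119, and all 9 myeloid arrays lay between 4.19 and 4.80. PreMegE and CFUe overlapped each other and lay above all other arrays. Hk1 rose by 1.45 from KLS to PreMegE (SE 0.14, adjusted p = 6.70e-07), or by 0.99 with scaling to the spike-in probes, under the 2-fold limit. It fell by 1.65 from CFUe to Ter119 (adjusted p = 1.31e-08). It was 1.03 higher in PreMegE than in PreGM (adjusted p = 3.51e-05), a call lost without PreMegE replicate 2 (0.97) and without PreGM replicate 2 (0.9976), and it was 1.54 higher in CFUe than in GMP (SE 0.14, adjusted p = 9.34e-08), although only 0.17 higher with scaling to the spike-in probes. The gene had 6 probes, 5 of them tested. All 5 were called higher in PreMegE than in KLS (1.07 to 1.64) and in CFUe than in GMP (1.54 to 2.34). From CFUe to Ter119, the brightest probe fell by 1.65 and 3 others by 1.31 to 2.47, but the second brightest did not (0.23, adjusted p = 0.237). From PreGM to PreMegE the second brightest probe differed by only 0.56, short of the 2-fold limit that the other 4 passed. The array names 1 RefSeq transcript of Hk1 for the brightest probe and a different one for the others, and which forms each probe detects was not worked out.

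Relative to KLS, the Hk3 minus Hk1 difference was -5.07 ± 0.08 (SD, n = 3) in PreMegE, -7.46 ± 0.66 in CFUe and 0.96 ± 0.01 in Ter119, against 0.80 ± 0.19 in PreGM, 2.11 ± 0.21 in GMP and 2.93 ± 0.14 in Mac1Gr1. For Hk2 minus Hk1 the difference was -2.36 ± 0.10 in PreMegE, -3.97 ± 0.27 in CFUe and 0.28 ± 0.28 in Ter119, against 0.08 ± 0.10, 0.68 ± 0.14 and 1.59 ± 0.04 in PreGM, GMP and Mac1Gr1. Across the 3 stages the erythroid fractions were lower by 5.80 for Hk3 minus Hk1, by 2.80 for Hk2 minus Hk1 and by 3.01 for Hk3 minus Hk2, each with p = 0.00025 and an adjusted p = 0.000643 by the exact permutation test. From progenitor to mature fraction, Hk3 minus Hk1 rose by 4.62 and Hk2 minus Hk1 by 2.58 (exact permutation test, p = 0.005, the smallest of 400 permutations, adjusted p = 0.00692), whereas Hk3 minus Hk2 missed the threshold (2.04, exact permutation test, adjusted p = 0.0900). In the myeloid arrays alone the first of these came to 0.82 and the second to 0.91, with 3 arrays against 3, where the smallest possible p is 0.1.

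From CFUe to Ter119, the return of Pkm, Hk3 and Hk2 moved with the granulocytic transcripts. The array medians of the granulocytic list were -3.67 to -0.84 in CFUe and 8.25 to 8.41 in Ter119, while Pkm rose from -3.38 ± 1.73 (SD, n = 3) to 3.55 ± 0.27. In PreGM the list had medians of -2.76 to -0.02 and linear sums of 623 to 744. Pkm was there at 3.95 ± 0.11 and Hk3 at 3.61 ± 0.21. In GMP the medians were 0.05 to 1.17 and the sums 1032 to 1143. Pkm was there at 4.66 ± 0.07 and Hk3 at 4.63 ± 0.14. The sums in CFUe were 5.38 to 41.3. Genes of the list differed from its median. Mpo and Prtn3 were at 9.27 and 5.19 in PreGM, against 2.03 and -2.02 in CFUe, whereas Ltf was at -2.55 and -2.69. Compared with Mac1Gr1, Ter119 was lower in Pkm by 2.24 on the log2 scale (adjusted p = 0.000941), in Hk3 by 2.45 (adjusted p = 3.94e-07) and in Hk2 by 1.79 (adjusted p = 2.36e-09). The Pkm difference was -1.002 and no longer called in the fit with a slide block (adjusted p = 0.226). The B-cell list also rose from CFUe (median -3.86 to -3.40) to Ter119 (2.82 to 3.37). The part of these other cells in the Ter119 values was not tested. The same limit holds for the falls of Hk1, Pfkm, Pklr and Ldha from CFUe to Ter119. In PreMegE, where Hk3 was already low, the granulocytic medians were -1.82 to -0.46, beside -1.13 to -0.87 in KLS. The highest linear sum of the list was 90.9 in PreMegE and 223 in KLS. Mpo was at 5.85 ± 0.06 (n = 2) in PreMegE and 7.22 ± 0.28 in KLS. Prtn3 was at 1.28 ± 0.21 and 2.80 ± 0.30, whereas Elane was at 0.13 ± 0.30 and -0.45 ± 0.24. The macrophage list fell at the same step as Hk3, from medians of 1.42 to 3.09 in KLS to -4.17 to -2.39 in PreMegE. In PreGM the macrophage medians were also low, at -3.65 to -2.63. Hk3 was at 3.61 ± 0.21 in PreGM and at 2.40 ± 0.06 in KLS. The part of macrophage or granulocytic transcripts in the Hk3 fall from KLS to PreMegE was not tested.

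**Figure D3:**
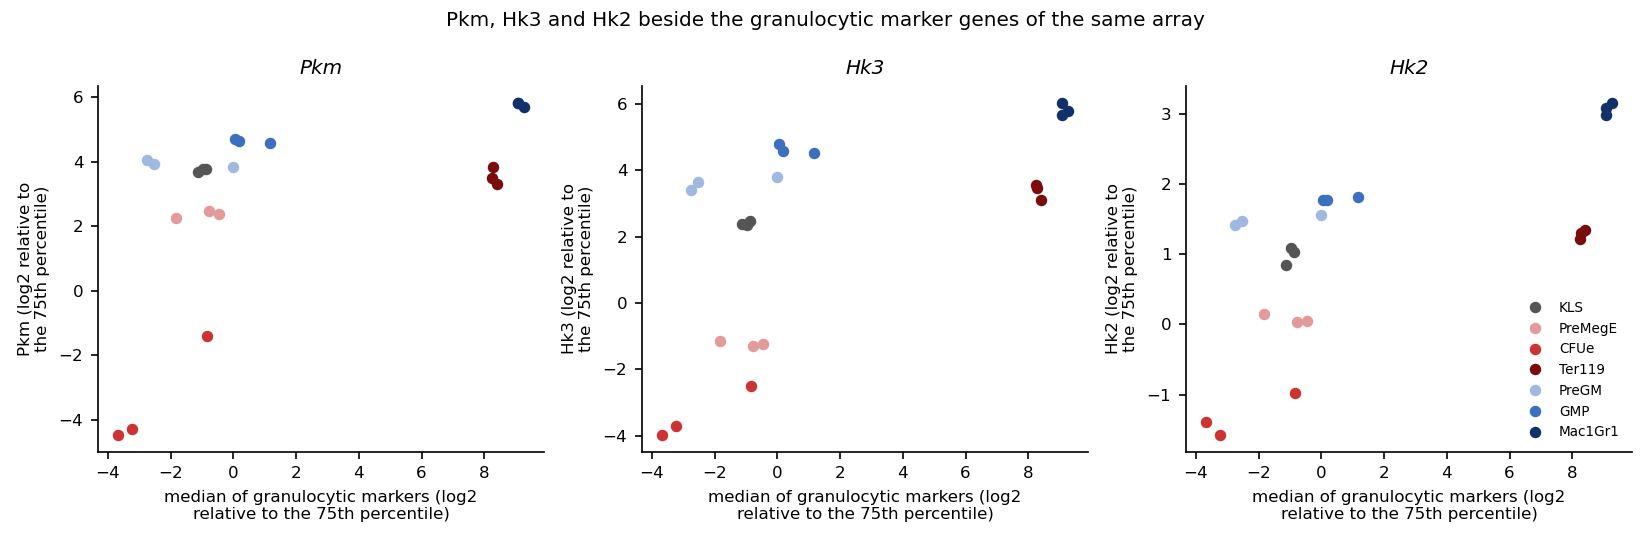
Level of Pkm, Hk3 and Hk2 (vertical axes) against the median level of 11 granulocytic marker genes (horizontal axis) on the same array, both in log2 relative to the array's 75th percentile. Each point is 1 array, coloured by fraction. The Ter119 and Mac1Gr1 arrays stand at marker medians of 8.25 to 9.26, and CFUe replicate 3 stands apart from the other CFUe arrays on both axes.

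The phosphofructokinases catalyse the committed step of glycolysis. Pfkm, the muscle-type subunit that red cells also use, was at 2.70, 2.70 and 3.01 in KLS, at 2.75, 2.98 and 2.88 in PreMegE, and at 4.31, 4.49 and 4.32 in CFUe. It was at -0.46, -0.21 and 0.00 in Ter119. The CFUe arrays were the highest of all 21. On the myeloid side Pfkm was at 2.43, 2.29 and 2.39 in PreGM, at 1.17, 1.31 and 1.05 in GMP, and at -0.81, -0.79 and -0.38 in Mac1Gr1, so that it was lower at each step and lowest in both mature fractions, which overlapped.

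Pfkm rose by 1.50 from PreMegE to CFUe (SE 0.14, adjusted p = 1.87e-07) and fell by 4.60 from CFUe to Ter119, 24.2-fold (SE 0.14, adjusted p = 3.58e-14). It fell by 1.19 from PreGM to GMP (SE 0.14, adjusted p = 9.32e-06), a call lost with scaling to the spike-in probes (-0.18), and by 1.84 from GMP to Mac1Gr1 (SE 0.14, adjusted p = 2.95e-09). CFUe was 9.16-fold above GMP (log2 difference 3.20, adjusted p = 7.77e-12). Pfkm had 1 probe.

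Pfkp, the platelet-type subunit, was between -0.03 and 0.00 in KLS, between -0.41 and -0.15 in PreMegE, and between -0.91 and -0.71 in CFUe. It was between 0.56 and 0.78 in PreGM, between 1.56 and 1.65 in GMP, and between 0.83 and 1.13 in Mac1Gr1, while Ter119 (-0.41 to -0.08) overlapped PreMegE. By the brightest probe it was 5.30-fold lower in CFUe than in GMP (log2 difference -2.40, SE 0.11, adjusted p = 1.42e-11) and 2.25-fold lower in Ter119 than in Mac1Gr1 (-1.17, SE 0.11, adjusted p = 1.16e-07). The second Pfkp probe ran the other way in both comparisons, at 0.82 (adjusted p = 0.00245, under the 2-fold limit) and at 1.52 (adjusted p = 4.10e-06). It was dimmer, between -4.33 and -1.82 in fraction means, and highest in CFUe. The direction of the Pfkp differences between the lineages therefore depends on the probe.

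The Pfkp minus Pfkm difference, relative to KLS, was -2.36 ± 0.20 (SD, n = 3) in CFUe and 3.24 ± 0.18 in GMP. Across the 3 stages the erythroid fractions were lower by 2.90 with the brightest probe (exact permutation test, adjusted p = 0.000643) and by 0.57 with the second (adjusted p = 0.164). Pfkl, the liver-type subunit, was read from the pathway list. The Pfkl minus Pfkm difference was lower in the erythroid fractions by 1.76 (exact permutation test, adjusted p = 0.000643). It was 1.68 below KLS in CFUe and 1.59 above KLS in GMP.

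The remaining members spanned 1.88 to 2.46 log2 units between their highest and lowest fraction means, against 9.23 for Hk3, 9.17 for Pkm, 2.40 for Pfkp and 1.66 for Hk1. Gpi1, which converts glucose 6-phosphate to fructose 6-phosphate and was measured on 10 spots per array, was between 6.01 and 6.70 in KLS, PreMegE and CFUe, which overlapped. It was between 6.95 and 7.05 in Ter119, between 7.09 and 7.31 in PreGM, between 7.90 and 8.05 in GMP and between 8.67 and 8.82 in Mac1Gr1. It was 3.16-fold lower in CFUe than in GMP (log2 difference -1.66, SE 0.13, adjusted p = 9.87e-09) and 3.38-fold lower in Ter119 than in Mac1Gr1 (-1.76, SE 0.13, adjusted p = 4.41e-09). None of its 6 steps passed the 2-fold limit in the main values. The CFUe to Ter119 step passed with quantile scaling (1.15). The PreGM to GMP step passed in the series table (1.07) and with scaling to the spike-in probes (1.78). With the latter scaling the GMP to Mac1Gr1 step turned to -1.23.

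Aldoa, which splits fructose 1,6-bisphosphate, rose in means from 6.39 ± 0.33 (SD, n = 3) in KLS to 7.24 ± 0.13 in Ter119 and 8.62 ± 0.15 in Mac1Gr1. No step passed the 2-fold limit in the main values. The GMP to Mac1Gr1 step passed with a slide block (1.16), without GMP replicate 2 (1.03) and without Mac1Gr1 replicate 1 (1.01). With scaling to the spike-in probes it turned to -1.11, and the PreGM to GMP step passed at 1.75. The Ter119 value was lower than that of Mac1Gr1 by a called 1.38 on the log2 scale (adjusted p = 1.38e-06), and the second Aldoa probe gave -1.41 (adjusted p = 4.50e-07). Aldoc, the brain-type aldolase of the pathway list, was highest in KLS (0.60 ± 0.11) and fell by 1.93 in PreMegE (adjusted p = 6.89e-07) and by 2.18 in PreGM (adjusted p = 5.13e-07).

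Ldha, which reduces pyruvate to lactate and so regenerates NAD, was at 5.90, 5.69 and 6.08 in KLS, at 6.59, 6.75 and 6.60 in PreMegE, and at 7.20, 7.41 and 7.59 in CFUe. It was at 5.59, 5.38 and 5.60 in Ter119, below all other arrays, and the 9 myeloid arrays lay between 6.63 and 7.01. Ldha fell by 1.88 from CFUe to Ter119, 3.67-fold (SE 0.12, adjusted p = 3.64e-10), and Ter119 was 2.75-fold below Mac1Gr1 (adjusted p = 2.55e-08). The second Ldha probe gave -2.30 and -1.73 for these differences, both called. Ldhb, the heart-type subunit, was at 3.49 ± 0.17 in KLS, 0.32 ± 0.13 in PreMegE and -0.46 ± 0.15 in CFUe, and at 3.78 ± 0.12 in GMP. The Ldhb minus Ldha difference was 5.45 below KLS in CFUe and 0.65 below KLS in GMP. The lineage difference was -1.72 for PreMegE against PreGM and -4.80 for CFUe against GMP. The mature stage ran the other way, at 1.66 for Ter119 against Mac1Gr1. Over all 3 stages the lineage difference missed the threshold (-1.62, exact permutation test, adjusted p = 0.0624). Without the mature fractions, and so without the stage of opposite sign, it passed (-3.26, exact permutation test, adjusted p = 0.00562).

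In counts, a gene was called at a limma adjusted p under 0.05 and a difference of at least 2-fold. At the KLS to PreMegE step 2 members rose (Hk1 and Pklr), against 3.55% of all probes tested, and 1 fell (Hk3), against 8.86%. With scaling to the spike-in probes none rose and 3 fell, with Hk2 (-1.37) and Pkm (-1.83) beside Hk3. From PreMegE to CFUe 2 rose (Pfkm and Pklr), against 9.96%, and 3 fell (Hk2, Hk3 and Pkm), against 14.7%. From CFUe to Ter119 3 rose (Hk2, Hk3 and Pkm), against 29.2%, and 4 fell (Hk1, Pfkm, Pklr and Ldha), against 28%. At the KLS to PreGM step 1 rose (Hk3), against 2.11%, and by limma none fell, against 6.53%, although Pfkm was lower by 0.43 (unadjusted p = 0.00777, adjusted p = 0.0344), short of 2-fold. From PreGM to GMP 1 rose (Hk3), against 4.01%, and 1 fell (Pfkm), against 6.36%. From GMP to Mac1Gr1 3 rose (Hk2, Hk3 and Pklr), against 29.1%, and 1 fell (Pfkm), against 27.6%. The rises at that step turned with the scaling: relative to the spike-in probes the median of all probes was -1.86, and Hk2, Hk3 and Pklr were at -0.74, -0.83 and -0.67.

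Between the lineages, 2 members were higher (Hk1 and Pklr) and 3 lower (Hk2, Hk3 and Pkm) in PreMegE than in PreGM, against 5.81% and 6.23% of all probes. With normexp background correction neither Hk1 (0.99) nor Pklr (0.71) was called there and 3 were lower, and without PreMegE replicate 2 or PreGM replicate 2 1 was higher and 2 were lower. In CFUe against GMP 3 were higher (Hk1, Pfkm and Pklr), against 12.1%, and 5 lower (Hk2, Hk3, Gpi1, Pfkp and Pkm), against 14.2%. In Ter119 against Mac1Gr1 none was higher by limma, against 22%, although Pfkm (0.44) and Pklr (0.99, 1.99-fold) were higher with an adjusted p under 0.05 and short of 2-fold, and 7 were lower (Hk2, Hk3, Gpi1, Pfkp, Aldoa, Pkm and Ldha), against 19.9%. The median of the members in these comparisons was -0.55, -1.21 and -1.42, beside 0.03, 0.22 and 0.06 over all probes tested. At the terminal steps and in the comparison of the mature fractions about as many members rose as the background would hold, or fewer. The 7 members lower in Ter119 than in Mac1Gr1 were a larger share than the 19.9% of all probes.

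**Figure D4:**
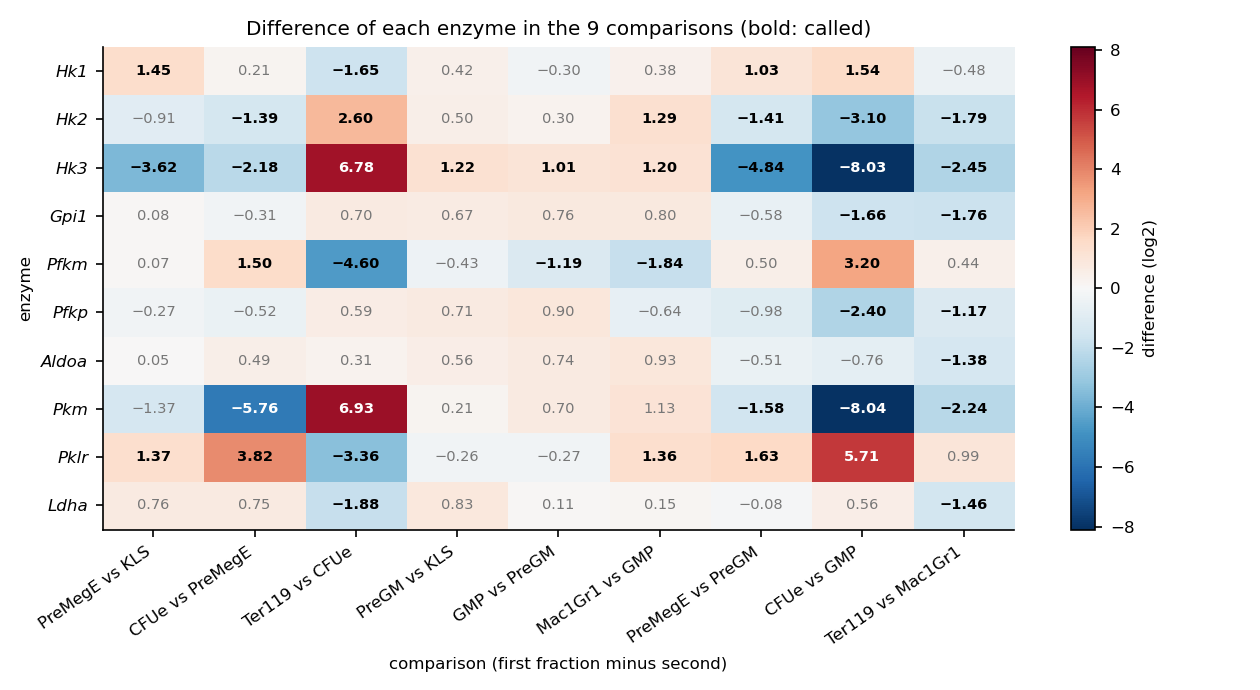
Difference of each enzyme (rows) in the 9 comparisons (columns), as the log2 level of the first fraction minus that of the second, with blue for lower and red for higher. Bold values passed an adjusted p of 0.05 and a 2-fold difference. CFUe against GMP held 8 called members, among them Hk3 at -8.03 and Pkm at -8.04.

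The difference between the lineages was also tested within steps, as the erythroid change minus the myeloid change. At the second step (PreMegE to CFUe minus PreGM to GMP) it was positive for 2 members, Pfkm (2.70) and Pklr (4.08), against 8.38% of all probes, and negative for 5, against 11.8%. The latter were Hk2 (-1.69), Hk3 (-3.19), Gpi1 (-1.07), Pfkp (-1.42) and Pkm (-6.46, SE 0.72, adjusted p = 2.77e-06). At the third step (CFUe to Ter119 minus GMP to Mac1Gr1) it was positive for 4, namely Hk2 (1.31), Hk3 (5.58), Pfkp (1.24) and Pkm (5.80), against 20.9%, and negative for 4, namely Hk1 (-2.02), Pfkm (-2.76), Pklr (-4.72) and Ldha (-2.02), against 19%. Pfkm thus fell in both lineages at the third step, and by more in the erythroid one. With the second brightest probe, Pfkp turned to 0.73 at the second step (adjusted p = 0.0550), and the third-step calls of Hk1 (-0.66) and Pfkp (0.70) were lost. The Gpi1 call was lost without CFUe replicate 1 (-0.93). The comparisons share fractions, so their values are not independent of each other.

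Of 33 other genes of the pathway, 32 had a named probe and 27 were tested. From KLS to PreMegE none rose (3.55% of all probes did) and 11 fell (8.86%), or 6 without PreMegE replicate 3. They include Ldhb, which fell by 3.17, and Eno2, the neuronal enolase, and Tigar, which lowers fructose 2,6-bisphosphate, whose differences of -2.94 and -2.33 rest on PreMegE levels well above background on 1 of 3 arrays each. From PreMegE to CFUe 3 rose (9.96% of all probes) and 5 fell (14.7%). The glucose transporter Slc2a1 fell by 4.02 (adjusted p = 7.92e-10) and Pfkfb3, which makes fructose 2,6-bisphosphate, by 1.63, while the lactate carrier Slc16a1 rose by 2.01 (adjusted p = 1.80e-08). From CFUe to Ter119 15 rose (29.2% of all probes) and 4 fell (28%). Bpgm, which makes the 2,3-bisphosphoglycerate that lowers the oxygen affinity of haemoglobin, rose by 7.22 to a level of 7.60 ± 0.24 (SD, n = 3), with means of -0.92 to 0.89 in all other fractions. The insulin-responsive transporter Slc2a4 rose by 5.98 to 2.61 ± 0.34. Bpgm and Slc2a4 were at -0.92 ± 0.10 and -5.71 ± 0.17 in Mac1Gr1, where Slc2a4 was not well above background on any array, so that Ter119 was at least 162-fold higher in it (adjusted p = 1.05e-08).

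In the myeloid steps, 1 pathway gene rose (2.11% of all probes) and 5 fell (6.53%) from KLS to PreGM. The phosphoglycerate mutase Pgam1 rose by 1.30 (adjusted p = 3.73e-06), and Aldoc fell by 2.18. From PreGM to GMP 5 rose (4.01% of all probes), among them Ldhb by 1.66 (adjusted p = 2.48e-08) and Pfkfb4, another enzyme of fructose 2,6-bisphosphate, by 1.32, and 2 fell (6.36%), Aldoc by 1.63 and the neuronal-type glucose transporter Slc2a3 by 1.51. From GMP to Mac1Gr1 6 rose (29.1% of all probes) and 9 fell (27.6%). Slc2a3 rose by 6.74 (adjusted p = 8.15e-17), the ADP-dependent glucokinase Adpgk by 5.46, Pfkfb4 by 4.92 and the lactate exporter Slc16a3 by 4.86. Slc16a1 fell by 4.92 and Pdk1, an inhibitor of pyruvate dehydrogenase, by 3.37. With scaling to the spike-in probes 4 rose and 21 fell at this step.

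Between the lineages none of the 27 pathway genes was higher in PreMegE than in PreGM (5.81% of all probes were) and 5 were lower (6.23%), or 8 without PreGM replicate 3, among them Pgam1 by 2.33 (adjusted p = 1.91e-09). In CFUe against GMP 4 were higher (12.1%) and 10 lower (14.2%). Slc2a1 was lower by 5.09 (adjusted p = 1.21e-11), Ldhb by 4.24 and Pgam1 by 3.85, whereas Slc2a3 was higher by 2.14. On no CFUe array did Tigar stand well above background, and its level there was at least 10.1-fold lower (adjusted p = 1.86e-11). In Ter119 against Mac1Gr1 4 were higher (22%) and 10 lower (19.9%), with Bpgm higher by 8.52 and Slc16a1 by 5.92. The rises of Adpgk, Pfkfb4, Slc16a3 and Slc2a3 from CFUe to Ter119 (3.12, 3.66, 5.15 and 2.04) concern genes that were higher still in Mac1Gr1, by 2.04 to 2.56. At that step these rises moved with the granulocytic list, as those of Pkm and Hk3 did. The part of granulocytic cells in them was not tested.

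As a description of likeness, the levels of each member over the 21 arrays were correlated with those of 14129 other genes. The arrays fall into 7 fractions, so the values are no test. Pkm was nearest to Fmnl3 (Pearson r 0.99), Serpinb1a and Pstpip1, Hk3 to Crybg3, Soat1 and Atp8b4 (0.98 to 0.99), and Hk2 to Adam15, Tnfrsf1a and Myo5a (0.99). Pklr was nearest to Slc26a1, Rfesd and Slc25a21 (0.94 to 0.96) and Pfkm to AI854703, Prelid2 and Nefh (0.98). Hk1 was nearest to Ino80c, Tango2 and Ctnna1 (0.92 to 0.95), Gpi1 to Gxylt1, Sptlc2 and Lamp2 (0.97 to 0.98), and Aldoa to Mrpl33, Sem1 and Dhdds (0.98). Pfkp was nearest to Mapkapk3, Pgam1 and Rufy1 (0.94 to 0.96), and Ldha to Pigs, Pex16 and Ptges2 (0.96). Among the members, Hk2 and Hk3 had r 0.97, Pkm had r 0.93 with Hk2 and 0.91 with Hk3, and Pklr had r -0.87 with Pkm.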

How the data were processed

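Total RNA of 21 sorted samples was labelled with Cy3 and hybridised to whole mouse genome arrays, 1 sample per array. Per the file headers, the authors read the arrays in Agilent Feature Extraction 10.7.1.1, and the deposited scanner files give its processed, background-corrected intensity for each spot. The series table, also deposited by the authors, is in log2 units and already normalized. The study's methods name LIMMA and SAM, and the scaling used is not given in the sources used here.

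For the main values, the 75th percentile of each array over its 43379 spots other than controls was subtracted from the log2 intensity. Outlier spots (80 to 283 per array) were left out, no spot was saturated, and spots of a probe were averaged, giving 41174 probes. Testing was limited to the 29532 probes that were well above background throughout the 3 arrays of 1 or more fractions. RefSeq accessions were named through a table of GRCm38.p6, used for names (26690 probes) and for the promoter sequences. The array annotation names mm9, and no coordinates were taken from it. Where a gene had several probes, the brightest over all arrays was used.

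All arrays entered 1 limma 3.58.1 fit (R 4.3.3, lmFit and eBayes, two-sided) with a mean per fraction and no block, and adjusted p-values are Benjamini-Hochberg values over all probes tested within a comparison. The median residual SD was 0.262 with 14 degrees of freedom, and the number of arrays limits the precision. On simulated data for CFUe vs PreMegE with 29532 probes, 178 of 200 probes changed by 2 on the log2 scale were called, with 7 unchanged ones. Differences between isoform probes were tested by exact permutation of arrays within stage or lineage (Python 3.11.15, numpy 2.4.6, pandas 2.3.3). Figures were drawn with matplotlib 3.10.9. For a probe below background throughout a fraction, "at least" folds set the brighter mean against that fraction's mean after raising each of its values to the array's dimmest signal counted as well above background, where that is higher.

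The text names every member, the genes of a fixed list of other glycolytic enzymes, regulators and transporters with the largest changes, marker genes that moved with a member, and the 3 genes most like each member. The members and lists were chosen with earlier results of these data known. Replicate numbers were not used to pair arrays. Same-numbered deviations correlated between -0.37 and 0.37. They were not set against differently numbered arrays, so this cannot exclude a pairing. Alternatives were quantile and spike-in scaling, the series table, normexp background correction (offset 50), no filter on dim probes, slide (9 slides) and replicate number as blocks, the compared fractions alone, no minimum fold, the second brightest probe and leaving out each array. The arrays were scanned on 1 day.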

Additional observations from a re-analysis of the deposited data

Results flagged for a closer look

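The following enzymes changed by a different amount in the erythroid and the myeloid lineage at the same step, by limma's test of the difference (erythroid minus myeloid, log2, at least 2-fold and adjusted p under 0.05). At the first step, from KLS to PreMegE or PreGM, which share the KLS arrays, the difference was 1.03 for Hk1, -1.41 for Hk2, -4.84 for Hk3, -1.58 for Pkm and 1.63 for Pklr. At the second step it was -1.69 for Hk2, -3.19 for Hk3, -1.07 for Gpi1, 2.70 for Pfkm, -1.42 for Pfkp, -6.46 for Pkm and 4.08 for Pklr. At the third step it was -2.02 for Hk1, 1.31 for Hk2, 5.58 for Hk3, -2.76 for Pfkm, 1.24 for Pfkp, 5.80 for Pkm, -4.72 for Pklr and -2.02 for Ldha. With the second brightest probe the third-step values of Hk1 (-0.66) and Pfkp (0.70) were under 2-fold, and the second-step value of Pfkp was 0.73. Without CFUe replicate 3, whose granulocytic median was the highest of its fraction, the Pkm difference was -7.45 at the second step and 6.79 at the third. The Ter119 arrays, which enter the third step only, carried granulocytic and B-cell transcripts, and the Mac1Gr1 arrays carried B-cell transcripts too. The part of these transcripts in that step was not tested.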

How the results depend on the processing

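A turn of direction was counted where the value was called before or after it, and no cause was tested unless the setting itself shows it. With scaling to the spike-in probes the median of all probes was -1.86 from GMP to Mac1Gr1 (0.17 in the main values) and 0.99 from PreGM to GMP (-0.02). With it, Aldoa from CFUe to Ter119 turned to -1.07, Hk1 at the second step between lineages to -1.02, and from GMP to Mac1Gr1 Hk1 to -1.65, Hk2 to -0.74, Hk3 to -0.83, Gpi1 to -1.23, Aldoa to -1.11, Pklr to -0.67 and Ldha to -1.89. From PreGM to GMP 7 members were then called (7 higher) and 16 pathway genes, and from GMP to Mac1Gr1 25 pathway genes. With the second brightest probe Hk1 from CFUe to Ter119 turned to 0.23, Pfkp to 0.82 in CFUe against GMP, 1.52 in Ter119 against Mac1Gr1 and 0.73 at the second step, and the lineage difference of Pfkl minus Pfkp from 1.13 to -1.20. The third-step calls of Hk1 (-0.66) and Pfkp (0.70) were lost. The lineage difference of Pfkp minus Pfkm weakened to -0.57, and its maturation difference to 1.87. Without a minimum fold, the members called were 5 (PreMegE vs KLS), 8 (CFUe vs PreMegE), 8 (PreGM vs KLS), 5 (GMP vs PreGM), 8 (Mac1Gr1 vs GMP) and 9 (PreMegE vs PreGM), and the pathway genes 17, 20, 13, 14, 23 and 17. With normexp the pathway genes were 6 (PreMegE vs KLS) and 5 (CFUe vs PreMegE), and the members 3 (PreMegE vs PreGM, all lower). Quantile scaling and the slide block each left 1 member in GMP vs PreGM, and the slide block left 7 pathway genes in PreMegE vs KLS. Quantile scaling weakened Aldoc minus Aldoa in maturation to 0.35. Without Ter119 and Mac1Gr1, the stage of opposite sign (1.66), the lineage difference of Ldhb minus Ldha passed at -3.26. In the myeloid arrays alone, an alternative chosen after seeing the data in which no p can pass, the maturation differences were 0.91 (Hk2 minus Hk1), 0.82 (Hk3 minus Hk1), 1.19 (Pfkp minus Pfkm), -1.38 (Pfkl minus Pfkp) and 0.47 (Aldoc minus Aldoa). The replicate block called 1 more member, Pkm in Mac1Gr1 vs GMP (1.13, adjusted p = 0.0490), giving 5, and changed no other call of a member. With 1 array left out in turn, the members called ranged from 1 to 2 (GMP vs PreGM, 1 without PreGM replicate 2 or GMP replicate 2) and from 3 to 6 (PreMegE vs PreGM, 3 without PreMegE replicate 2 or PreGM replicate 2), the pathway genes from 6 to 11 (PreMegE vs KLS, 6 without PreMegE replicate 3) and from 5 to 8 (PreMegE vs PreGM, 8 without PreGM replicate 3), and the maturation difference of Pklr minus Pkm from -5.58 to -4.72, past the threshold without GMP replicate 2. Over all comparisons, 764 member values stayed on the same side of the threshold when 1 array was left out, 10 lost their call and 6 gained one.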
